A study of Mus musculus with 4 samples.

Results

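The genes described here are 6 regulators and effectors of early T-cell development, Tcf7, Gata3, Bcl11b, Lef1, Rag1 and Rag2, at which the repressive histone mark H3K27me3 was mapped in mouse blood progenitors of adult and fetal origin. They were chosen by name, with earlier results of these data known. Their peaks were taken from 5 fixed windows of the mouse build mm9, since Rag1 and Rag2 are neighbours and share 1 window. The windows held 16 of the 20024 peaks of adult bone marrow progenitors and 35 of the 31847 peaks of fetal liver progenitors. Both populations were lineage-negative C57BL/6 cells, that is, cells sorted for lacking a panel of surface markers of mature blood cells that included CD3 and CD8 of T cells. The adult cells came from the long bones of 8-week-old mice and the fetal cells from livers at embryonic day 14.5. All cells were grown with SCF, IL-3, IL-6 and FLT3 ligand, were infected with a lentivirus for NOTCH1ΔE (N1dE), a signalling form of NOTCH1 that lacks extracellular sequence, and were sorted as GFP+ after 3 days. Every group used here carried NOTCH1ΔE, so no value below can be set against untransduced cells. Neither the promoter that drives the transgene nor the sex of the animals is stated in the labels. The lists hold no expression values, so the cell types could not be checked against marker genes. Of the 4 samples, 2 were immunoprecipitations, each with 1 peak list, and 2 were their inputs. There was 1 list per population, called by the authors on merged libraries, so no error between animals or cultures can be given and no test between the populations was made. The values describe these lists, whose read depth is unknown. In such bulk samples, the mark on some of the cells and a weaker mark on all of them cannot be told apart.

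T cells arise from progenitors that receive a Notch signal in the thymus. That signal switches on Tcf7 (TCF-1) and Gata3, a high-mobility-group and a zinc-finger transcription factor that start the T-cell programme. Bcl11b, another zinc-finger factor, acts later and seals the choice of the T lineage, and Lef1 is the close relative of Tcf7 that works beside it. Rag1 and Rag2 encode the recombinase that cuts antigen receptor genes in developing T and B cells. H3K27me3 is written by Polycomb repressive complex 2 and is typical of developmental genes that are held silent, where it often starts from CpG-rich promoters and can spread into broad domains.

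The sequences at the starts of these genes differed widely in CpG content. They were taken from the RefSeq table of the build GRCm38.p6, which gives 300 bases per annotated start, 250 before and 50 after it, and lists all 6 genes. The peaks are on an older build, so these sequences were not placed on the peaks. Over all 32851 promoters of the table, the median was 7 CpG dinucleotides, with quartiles of 3 and 20. The first start listed for Tcf7 held 45, a number reached by 1.93% of promoters, and its second start held 17. The start of Gata3 held 22, which 23.1% of promoters reached. The 4 starts of Lef1 held 18, 21, 8 and 5. The start of Bcl11b held 9 and lay close to the median. Rag1 and Rag2 held 3 each, as many as the lower quartile. Of the genes whose starts follow, Gata3 names the window with the most bone marrow cover and Lef1 that with the most fetal liver cover. Bcl11b names a marked window and has a start of 43.0% GC, and Rag1 stands for the weakly marked pair. Capitals mark the CpG dinucleotides.
Gata3, GRCm38.p6 chr2:9878551-9878850, minus strand: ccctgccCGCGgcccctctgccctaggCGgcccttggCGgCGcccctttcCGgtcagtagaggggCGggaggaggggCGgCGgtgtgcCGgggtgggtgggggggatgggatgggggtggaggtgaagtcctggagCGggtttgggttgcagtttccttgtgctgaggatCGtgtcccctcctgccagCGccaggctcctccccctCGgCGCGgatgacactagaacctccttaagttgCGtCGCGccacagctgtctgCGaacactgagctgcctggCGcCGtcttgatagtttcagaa
Lef1, first listed start, GRCm38.p6 chr3:131110047-131110346, plus strand: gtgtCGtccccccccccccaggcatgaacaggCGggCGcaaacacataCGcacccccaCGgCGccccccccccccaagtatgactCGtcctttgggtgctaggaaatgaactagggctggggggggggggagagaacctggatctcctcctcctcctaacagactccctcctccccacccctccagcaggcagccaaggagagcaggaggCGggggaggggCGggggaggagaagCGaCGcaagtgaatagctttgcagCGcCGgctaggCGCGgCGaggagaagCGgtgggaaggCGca
Bcl11b, GRCm38.p6 chr12:108003365-108003664, minus strand: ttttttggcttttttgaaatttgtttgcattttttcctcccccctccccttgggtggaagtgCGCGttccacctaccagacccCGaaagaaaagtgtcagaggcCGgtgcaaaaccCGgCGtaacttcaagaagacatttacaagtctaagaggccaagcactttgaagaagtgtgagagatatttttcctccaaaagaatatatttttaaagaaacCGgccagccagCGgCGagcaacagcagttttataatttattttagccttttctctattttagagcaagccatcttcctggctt
Rag1, GRCm38.p6 chr2:101649483-101649782, minus strand: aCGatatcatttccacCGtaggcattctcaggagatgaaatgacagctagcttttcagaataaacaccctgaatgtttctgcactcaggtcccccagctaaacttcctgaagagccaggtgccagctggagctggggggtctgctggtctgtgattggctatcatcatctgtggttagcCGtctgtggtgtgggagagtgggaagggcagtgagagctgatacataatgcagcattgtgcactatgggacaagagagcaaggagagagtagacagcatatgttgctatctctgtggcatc
The bases TGGGAA, the core of the site of RBPJ, the DNA-binding partner of Notch, were searched on both strands. They occurred at 3 of the 4 starts of Lef1 and at the start of Rag1, and not in the listed windows of the other genes. The first and second listed starts of Lef1 overlap and hold the same copy. Of all promoters in the table, counted per start and not per gene, 25.6% held them. A gene with several starts has more chances, so their presence at 2 of 6 genes describes the letters only.

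**Figure D1:**
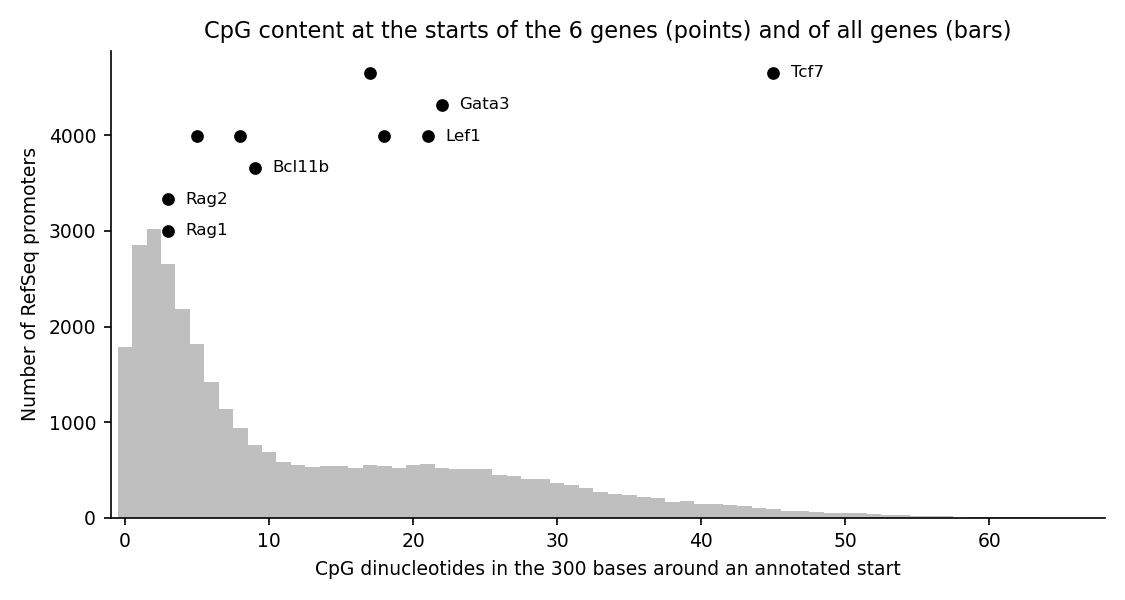
Number of CpG dinucleotides in the 300 bases around each annotated start on GRCm38.p6. Bars count all 32851 RefSeq promoters by CpG number, and black points give the annotated starts of the 6 genes, whose height on the vertical axis has no meaning. Rag1 and Rag2 lie at 3, Bcl11b at 9, Gata3 at 22 and the first start of Tcf7 at 45.

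In both populations the widest peak in each of the 4 transcription factor windows spanned at least 4.41 kb. The Rag window held only a pair of small peaks, both from bone marrow. Bone marrow peaks were present in 5 of 5 windows and covered 68.5 of 450 kb, or 15.2%. Fetal liver peaks were present in 4 of 5 and covered 104.5 kb, or 23.2%. Most of this cover was of low score. Peaks with a −log10 q of 2 or more covered 5.41 kb in bone marrow, all at Bcl11b, and 7.33 kb in fetal liver. The ratio of covered length, fetal liver over bone marrow, was 1.53 in the windows and 1.51 over all chromosomes in the lists as deposited. These 2 ratios moved apart under some cuts of the lists and stayed close under others. Among peaks with a −log10 q of 2 or more, their values were 1.35 in the windows and 0.692 over all chromosomes. That cut left only 3 bone marrow and 5 fetal liver peaks in the windows. At a fold of at least 3, with 2 peaks of each list left in the windows, the ratios were 0.963 there and 0.674 over all chromosomes. With only the 20024 fetal liver peaks of highest −log10 p they stayed close, at 1.02 and 1.09. Peaks of at least 1 kb gave 1.43 and 1.49. With the fetal liver list shortened to the total length of the bone marrow peaks, the ratio in the windows was 0.604. The single windows of the deposited lists lay on both sides of the sum, with ratios of 2.59 at Lef1, 1.83 at Tcf7, 1.72 at Bcl11b and 0.864 at Gata3. Bases under peaks of both lists came to 62.0 kb, which was 90.5% of bone marrow cover and 59.3% of fetal liver cover, against 74.1% and 49.2% over the whole lists. Of the bone marrow peaks, 14 of 16 shared 1 bp or more with a peak in fetal liver, against 68.0% of that whole list, and the 2 others were those of the Rag window. Of the fetal liver peaks, 14 of 35 overlapped a bone marrow peak, a share near the 39.8% of that whole list. The 21 others lay at Lef1 and Bcl11b.

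**Figure D2:**
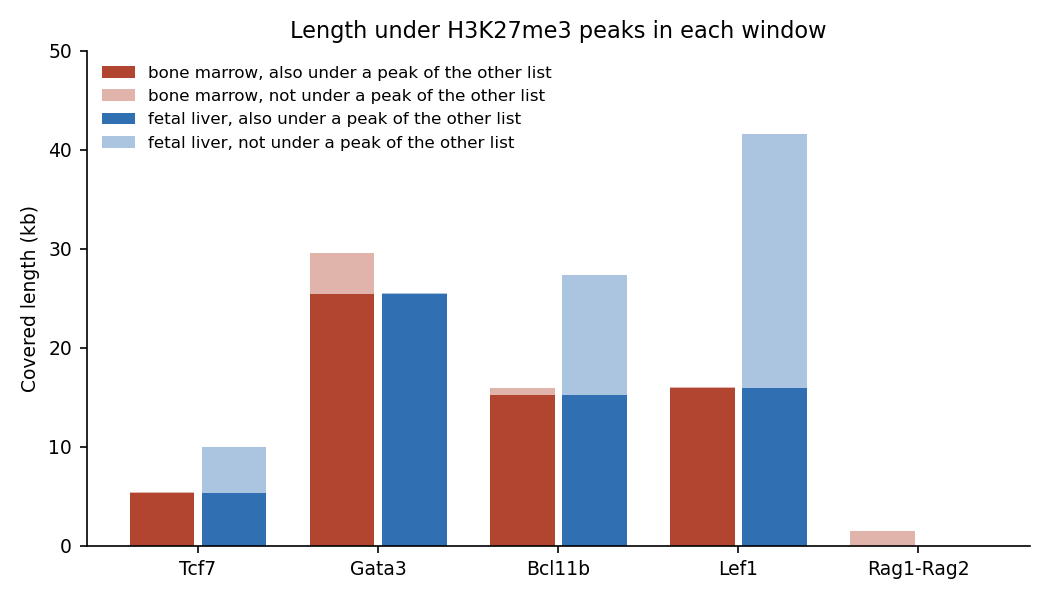
Length under H3K27me3 peaks in each window, in kb, for bone marrow (red) and fetal liver (blue). The full colour is the length marked in both lists and the pale part is the remainder. The pale part is 25.6 kb for fetal liver at Lef1 and 12.1 kb at Bcl11b, and 4.15 kb for bone marrow at Gata3.

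In bone marrow the mark in the transcription factor windows lay mainly towards the end at which the gene starts, and in fetal liver it did so at Tcf7, Gata3 and Bcl11b but less at Lef1. Gene starts could not be placed on mm9, so each window was cut at its middle, and the part towards the gene's start by its strand was taken as the promoter end. The windows are not centred on the genes, so this part can hold sequence upstream of the gene. Over the 4 windows, the promoter end held 94.7% of bone marrow cover and 80.9% of fetal liver cover. At Lef1 the 2 lists differed most in this share, with 90.1% in bone marrow and 55.3% in fetal liver. Cutting the windows into 3 parts instead gave 74.0% and 64.1% in the part nearest the promoter end. At Lef1 in fetal liver that part held 47.1% of the cover and the part farthest from it 38.8%. The middle part then held 42.7% of the bone marrow cover of Gata3 and 39.3% of its fetal liver cover.

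**Figure D3:**
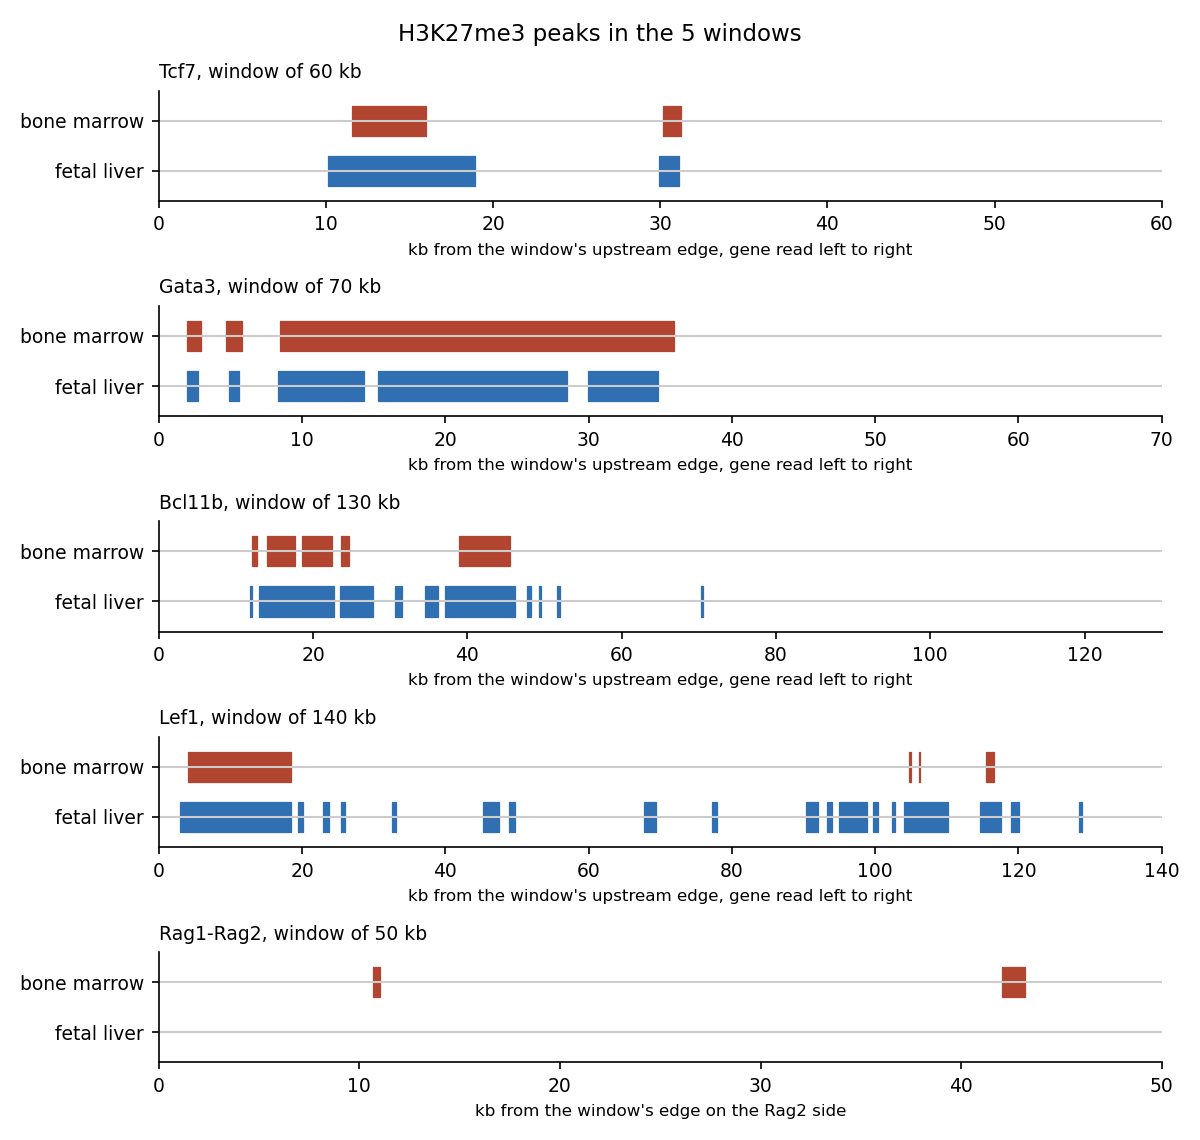
Peaks of both lists in the 5 windows. The horizontal axis is the distance in kb from the window's upstream edge, with each gene read from left to right, or from the edge on the Rag2 side for the Rag pair, and boxes are peaks of bone marrow (red) and fetal liver (blue). In bone marrow the peaks over 2 kb wide lie towards the left in the transcription factor windows, and fetal liver peaks go on through the window of Lef1 where bone marrow has a stretch of 86.2 kb without a peak.

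Tcf7, on the minus strand of chromosome 11 in the window from 52.05 to 52.11 Mb, carried 2 peaks in each population at the same places. The peak at the promoter end ran from 52094035 to 52098444 in bone marrow, with a width of 4.41 kb, a fold enrichment over input of 1.94 and a −log10 q of 1.57. In fetal liver it ran from 52091087 to 52099905, with a width of 8.82 kb, a fold of 1.77 and a −log10 q of 0.816. The fetal liver peak contained the whole bone marrow peak and reached 1.46 kb further on the upstream and 2.95 kb further on the downstream side. A second, short site lay in the middle of the window. It was 1.05 kb wide in bone marrow, from 52078756 to 52079807, and 1.18 kb wide in fetal liver, from 52078902 to 52080084, with 906 bp in common. No peak of either list lay in the 20 kb of the window farthest from the promoter end. Covered length was 5.46 kb in bone marrow against 10.0 kb in fetal liver, and of the bone marrow cover 97.3% was shared. Of all windows of 60 kb along chromosomes 1 to 19 and X, 19.3% held a bone marrow and 24.3% a fetal liver peak, and 25.6% of those with a peak in either list had more cover in bone marrow, which Tcf7 did not. In the RefSeq order on GRCm38.p6, Skp1 overlaps Tcf7, so these peaks cannot be assigned to Tcf7 alone. As much cover as at Tcf7 was found in 5.33% of windows in bone marrow and in 4.09% in fetal liver. The excess of fetal liver at Tcf7 rested on peaks of low score. Both lay at percentile 25.2 or below of the fetal liver list by −log10 q, and neither was among the 20024 fetal liver peaks with the highest −log10 p.

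Gata3, on the minus strand of chromosome 2 in the window from 9.76 to 9.83 Mb, carried the widest bone marrow peak of the genes. In fetal liver the widest peak lay at Lef1, with 15.4 kb against 13.2 kb at Gata3. In the lists as deposited, Gata3 was the transcription factor gene with more cover in bone marrow. In bone marrow a single peak of 27.5 kb ran from 9794058 to 9821554, at percentile 99.8 of its list by width, with a fold of 2.02 and a −log10 q of 1.18. In fetal liver the same stretch held 3 peaks of 4.86, 13.2 and 6.01 kb, from 9795158 to 9821679, with folds of 1.51, 1.85 and 1.79. They were separated by gaps of 1467 and 946 bp. Upstream of this stretch both lists had the same pair of short peaks. In bone marrow these were 1097 and 967 bp wide, with folds of 1.49 and 1.97, at percentiles 5.70 and 34.8 of that list. In fetal liver they were 697 and 749 bp wide, with folds of 2.33 and 2.88, at percentiles 80.5 and 94.2 of that list. Within the bone marrow list all 3 peaks at Gata3 lay below the median fold. Within the fetal liver list the wide peaks lay below it and the short upstream ones above it. Covered length was 29.6 kb in bone marrow against 25.6 kb in fetal liver, and 99.4% of the fetal liver cover was also under a bone marrow peak. The outer limits of the marked region differed little, by 20 bp on the upstream and 1.10 kb on the downstream side. Once gaps of up to 3 kb were closed, cover at Gata3 was 33.9 kb in bone marrow against 32.9 kb in fetal liver. Of the fetal liver cover, 14.7 kb was left with the 20024 peaks of highest −log10 p and 1.45 kb with the list shortened to the total bone marrow length. Among peaks of a −log10 q of at least 2 the order turned, to 0 kb in bone marrow against 1.45 kb in fetal liver. Of all windows of 70 kb, 21.3% held a bone marrow and 26.4% a fetal liver peak, and 25.9% of those with a peak in either list had more cover in bone marrow. Cover as long as at Gata3 occurred in 0.284% of these windows in bone marrow and 1.04% in fetal liver. In the RefSeq order on GRCm38.p6, the noncoding genes 4930412O13Rik and 9230102O04Rik overlap Gata3, so these peaks cannot be assigned to Gata3 alone.

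Bcl11b, on the minus strand of chromosome 12 in the window from 109.13 to 109.26 Mb, carried separate blocks of H3K27me3 in bone marrow and a larger number of peaks with more cover in fetal liver. Bone marrow had 5 peaks with 15.9 kb of cover and fetal liver had 10 peaks with 27.3 kb. From the promoter end, the bone marrow peaks were 0.691, 3.67, 3.90, 1.05 and 6.61 kb wide, with folds of 4.83, 2.80, 2.40, 3.08 and 2.01. A stretch of 14.3 kb without a bone marrow peak, from 109221104 to 109235366, separated the last of them from the others. Fetal liver peaks covered 53.0% of that stretch. The widest fetal liver peaks, of 9.69 kb from 109237327 to 109247013 and of 9.10 kb from 109213779 to 109222880, had folds of 2.28 and 1.89 and overlapped 3 of the bone marrow peaks in full. Of the 10 fetal liver peaks, 6 had no overlap with bone marrow, against 60.2% of the whole fetal liver list. They were 1747 bp wide or less, and 1 of them, from 109189514 to 109189737, lay 24.8 kb from the closest bone marrow peak. No peak of either list lay in the 43.3 kb of the window farthest from the promoter end. The marked part ended at almost the same place upstream, 205 bp apart, and reached 6.56 kb further downstream in fetal liver, without counting that distant peak. The peak with the highest fold among the 16 bone marrow peaks was the most upstream one, from 109247231 to 109247921. Its −log10 q was 6.63 and its fold lay at percentile 99.6 of the list. Only 36 bp of it overlapped a fetal liver peak, one of 241 bp with a fold of 1.53, and most of it fell in a gap of 872 bp between fetal liver peaks. Of all windows of 130 kb, 30.6% held a bone marrow and 36.3% a fetal liver peak, and 25.1% of those with a peak in either list had more cover in bone marrow, which Bcl11b did not. As much cover as at Bcl11b was reached by 3.02% in bone marrow and 2.40% in fetal liver. The order of cover turned when only peaks of a −log10 q of at least 2 were kept, to 5.41 kb in bone marrow against 4.21 kb in fetal liver.

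Lef1, on the plus strand of chromosome 3 in the window from 130.80 to 130.94 Mb, showed the largest difference in covered length among the genes in the lists as deposited. Bone marrow had 4 peaks with 16.0 kb of cover and fetal liver had 18 peaks with 41.6 kb. Both lists began with a wide peak at the promoter end, of 14.5 kb in bone marrow from 130804021 to 130818484 and of 15.4 kb in fetal liver from 130802978 to 130818393. The fetal liver peak began 1043 bp further upstream, and only 0.091 kb of all bone marrow cover at Lef1 lay outside fetal liver peaks. Their folds were 2.31 in bone marrow, at percentile 65.3 of that list, and 1.80 in fetal liver, at percentile 34.2. Beyond this peak the lists parted. Bone marrow had no peak for 86.2 kb, from 130818485 to 130904651, and fetal liver had 13 peaks wholly inside that stretch, which together with part of another covered 18.7% of it. These 13 peaks were 454 to 3874 bp wide, with folds of 1.16 to 2.51 and a −log10 q of 0.471 to 1.94. Towards the far end of the window, bone marrow had 3 peaks of 318, 233 and 1034 bp, each inside a wider fetal liver peak of 6.06 or 2.87 kb. In the 70 kb farthest from the promoter end, cover was 1.59 kb in bone marrow against 18.6 kb in fetal liver. The 2 fetal liver peaks with the highest fold in any of the windows were also there. They ran from 130918903 to 130920133 with a fold of 3.43 and from 130928448 to 130928891 with a fold of 3.90, and the closest bone marrow peak was 2.36 and 11.9 kb away. Of all windows of 140 kb, 32.0% held a bone marrow and 37.8% a fetal liver peak, and 25.1% of those with a peak in either list had more cover in bone marrow, which Lef1 did not. As much cover as at Lef1 was found in 3.26% in bone marrow and 1.05% in fetal liver. When only the 20024 fetal liver peaks with the highest −log10 p were used, Lef1 kept 30.6 kb of fetal liver cover. With that list shortened further, to the total length of the bone marrow peaks, it kept 15.2 kb, less than the 16.0 kb of bone marrow. With these 2 lists the difference, fetal liver minus bone marrow, was 14.6 and −0.847 kb at Lef1, and at Gata3 it was −14.9 and −28.1 kb.

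**Figure D4:**
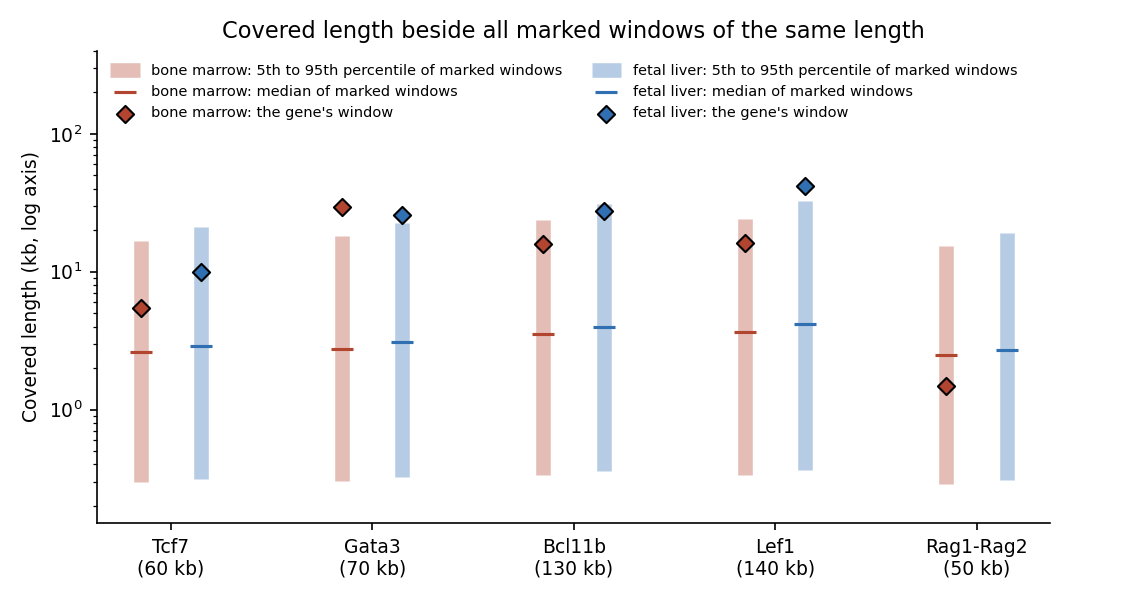
Covered length of each gene's window (diamonds) beside all windows of the same length with at least 1 peak in that list, on a log axis in kb. Pale bars run from the 5th to the 95th percentile of those windows and dashes mark their median, for bone marrow in red and fetal liver in blue. Gata3 lies above the bar in both lists and Lef1 in fetal liver, while the bone marrow value of the Rag window lies below the median and the Rag window has no fetal liver value.

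Rag1 and Rag2, read towards each other in the window from 101.46 to 101.51 Mb of chromosome 2, were the least marked of the genes. Bone marrow had 2 peaks there with 1.48 kb of cover and fetal liver had 0. The peak on the Rag2 side ran from 101470693 to 101471015, with a width of 323 bp, a fold of 1.62 and a −log10 q of 0.693. The peak on the Rag1 side ran from 101502028 to 101503186, with a width of 1159 bp, a fold of 1.74 and a −log10 q of 1.07. By fold they lay at percentiles 9.67 and 15.6 of the bone marrow list, so both were weak peaks. Between them lay 31.0 kb without a peak of either list. The closest fetal liver peak, from 101514901 to 101515427, lay outside the window on the Rag1 side, 43.9 and 11.7 kb from these peaks. It was 4.90 kb past the window's edge and scored higher than both, with a fold of 3.14 and a −log10 q of 3.43. The count of 0 in fetal liver therefore depends on where the window ends. A bone marrow peak also lay past this edge, 2.02 kb away, with a fold of 2.35. With the window widened by 20 kb on each side, cover was 3.38 kb in bone marrow against 0.527 kb in fetal liver. Of all windows of 50 kb, 17.3% held a bone marrow and 22.1% a fetal liver peak, and 25.9% of those with a peak in either list had more cover in bone marrow, as the Rag window did. Cover as long as at the Rag genes was found in 11.1% in bone marrow, and the median of windows with a bone marrow peak was 2.50 kb. With unknown depth, the count of 0 in fetal liver says only that no peak was listed there. In the RefSeq order on GRCm38.p6, Iftap overlaps Rag2 and Traf6 is the next protein-coding gene upstream of Rag1, so these peaks cannot be assigned to the Rag genes alone.

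Wide peaks did not carry the highest folds. The caller averages fold over the length of a broad peak, and the part of this in the values was not tested. The 3 bone marrow and 7 fetal liver peaks of at least 5 kb had median folds of 2.02 and 1.85, against medians of 2.12 and 1.93 over the whole lists. Peaks under 1 kb had median folds of 1.77 in bone marrow and 1.88 in fetal liver. Folds of at least 3 were found in 2 of 16 bone marrow peaks, both at Bcl11b, against 8.82% of that list. In fetal liver they were found in 2 of 35 peaks, both at Lef1, against 4.54% of that list, and the widest of these 4 spanned 1231 bp. Fold was above the median of its list in 6 of 16 peaks of bone marrow and in 14 of 35 of fetal liver. A q of at most 0.05 was reached by 9 of 16 bone marrow peaks, or 56.3%, against 54.1% of that list, and by 10 of 35 fetal liver peaks, or 28.6%, against 38.0% of that list.

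**Figure D5:**
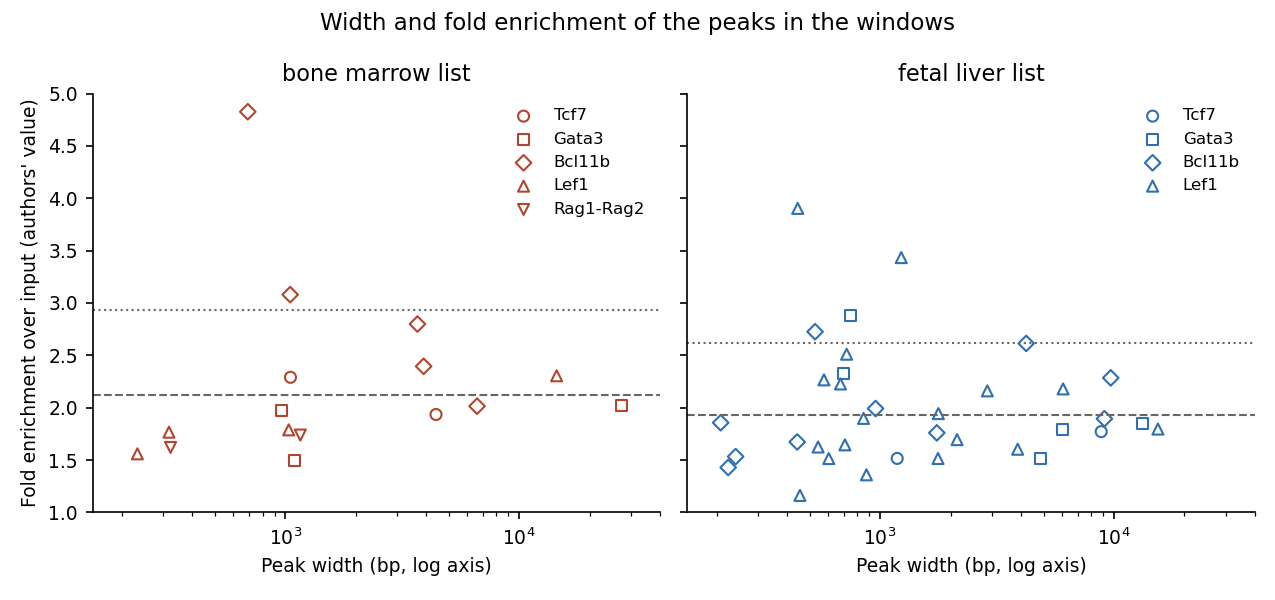
Width in bp on a log axis and the authors' fold enrichment over input of the 16 bone marrow (left) and 35 fetal liver peaks (right) in the windows. Each symbol is a gene's window, the dashed line is the median fold of the whole list and the dotted line its 90th percentile. The highest folds, 4.83 in bone marrow at Bcl11b and 3.90 in fetal liver at Lef1, belong to peaks under 1 kb wide.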

How the data were processed

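H3K27me3 was mapped by native chromatin immunoprecipitation and sequencing in 1 adult bone marrow and 1 fetal liver sample, each with an input. The build was mm9, and the tools named per the submitters' processing notes are MACS2 2.1.0, Picard and BWA 0.5.7. Their settings, the number of libraries merged and the read numbers are not stated in the labels. The deposited peak lists give the authors' fold enrichment (a ratio to input) and their −log10 p and −log10 q. The deposited score follows the −log10 q and was not used. Genes and windows were chosen with earlier results of these data known. From the lists, peaks overlapping a window by at least 1 bp, covered bases and distances were computed in Python 3.11.15 with numpy 2.4.6 and pandas 2.3.3. The code was tested on simulated data in 28 windows and against bedtools 2.31.1, with 0 differences. Background windows tile chromosomes 1 to 19 and X from their first base, with lengths from GenomeInfoDb 1.38.1. They were laid without regard to genes, whereas the members' windows were drawn around genes, though not centred on their starts. Gene starts, strand and neighbours come from RefSeq on GRCm38.p6, so no gene start was placed on mm9. Other T-lineage genes had been planned and were not analysed here for the same reason. Samples were grouped by title. The genes named are the 6 members and their neighbours. Alternatives were score, fold and width cuts, a shorter fetal liver list, another overlap rule, wider windows and joining within 3 kb. Figures were drawn with matplotlib 3.10.9.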

Additional observations from a re-analysis of the deposited data

How the results depend on the processing

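No paired analysis was possible because each population had 1 list. At a −log10 q of at least 2, bone marrow peaks remained in 1 window with 5.41 kb and fetal liver peaks in 3 with 7.33 kb, and the difference in cover, fetal liver minus bone marrow, turned to 1.45 kb at Gata3 and −1.2 kb at Bcl11b. At a fold of at least 3, each list had peaks in 1 window, with 1.74 kb for bone marrow against 1.68 kb for fetal liver, a ratio of 0.963, and the difference at Bcl11b was −1.74 kb. With only the 20024 fetal liver peaks of highest −log10 p the ratio was 1.02 and the difference at Tcf7 turned to −5.46 kb. With that list shortened to the total length of the bone marrow peaks, a setting added after seeing the data, fetal liver covered 41.3 kb, a ratio of 0.604, with differences of −5.46 kb at Tcf7 and −0.847 kb at Lef1. The ratio and the differences per window were also added then. Peaks of at least 1 kb gave a ratio of 1.43, joining within 3 kb 1.81 and windows wider by 20 kb on each side 1.49, and requiring 50% of a peak inside the window changed no value, since 0 peaks cross a window edge. The wider Rag window held 1 fetal liver peak with 0.527 kb and 4 bone marrow peaks with 3.38 kb. Without the read depth, no difference in cover can be set against the sensitivity of the lists.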

Other observations

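Beyond the windows, the distance to the next peak differed between genes and between sides. These distances run from the window edges, and no share of such gaps over the whole lists was computed. On the Rag2 side of the Rag window, bone marrow had no peak for 4.15 Mb, a stretch in which fetal liver had 3 peaks with 2.03 kb of cover. On the Rag1 side the next peak was only 2.02 kb away in bone marrow and 4.90 kb away in fetal liver. Beyond the far end of Bcl11b, bone marrow had no peak for 1.41 Mb, and fetal liver had 10 peaks there with 7.57 kb of cover, the widest of 5652 bp. Upstream of Gata3 neither list had a peak for 198.0 kb. Beyond the far end of Lef1 the first bone marrow peak was 272.0 kb and the first fetal liver peak 235.9 kb from the window. Just upstream of the Lef1 window, within the 10.6 kb free of fetal liver peaks, lay 2 bone marrow peaks with folds of 2.77 and 3.27.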
